A study of Danio rerio with 7 samples.

Results

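Heat shock proteins and the cytosolic chaperones that work with them were compared between the 2 growth phases of PAC2 cells, a permanent line derived from zebrafish embryos. Members were chosen by gene name: names beginning with hsp, hsf, cct2 to cct8, dnaj, bag1 to bag6, stip1, ahsa1 or pfdn, together with tcp1. Perlecan (*hspg2*) and, of the organelle chaperones, *hspa5*, *hsp90b1*, *hspd1* and *hspe1* were left out. The rule goes by name, so other proteins of mitochondria and the endoplasmic reticulum, such as *hspa9* and *dnajc1*, remain among the members and in all counts. The rule gave 101 of the 17570 genes in the matrix, carried by 91 different names, and 10 names belong to more than 1 identifier. Such names are given with their Ensembl identifier, and names that the gene name table writes in capitals are given in lower case. A further 13 identifiers whose names fit the rule, among them those of *hsp90aa1.1*, *hspb9l* and *hspb15*, are not among the 17570 and were not analysed here. Levels are given as CPM, estimated counts scaled to library size, and 100 members had a geometric mean above 1 CPM in the day 14 or the day 8 libraries, the exception being *hsf5*.

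Both growth phases are of wild-type PAC2 cells without treatment, grown in the dark at 26 °C with 5% fetal calf serum in 6-well plates. The stationary phase was sampled on day 14 after seeding (replicates 1, 2 and 4, since replicate 3 was lost) and the exponential phase on day 8 (replicates 1 to 4), which gives 3 and 4 libraries. Replicates are separate experiments with different passage numbers and starting days, and lysates of several wells were pooled in each. The medium was exchanged once, on day 7, so day 14 cells were 7 days and day 8 cells 1 day past the exchange, and the effects of growth phase, time and medium age cannot be told apart.

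Molecular chaperones bind unfolded stretches of other proteins and keep them from aggregating. Small heat shock proteins hold unfolded proteins without using ATP. HSP70 proteins bind and release their clients in an ATP cycle that J proteins start and nucleotide exchange factors (HSP110, BAG and HspBP1 proteins) reset. HSP90 acts later, on proteins that are nearly folded, and the ring-shaped chaperonin CCT folds actin and tubulin, which prefoldin delivers to it. Heat shock factors switch on the inducible members under stress, while other members are made at all times in growing cells.

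The libraries held 19426400 to 33414700 estimated counts on day 14 and 11252600 to 24561500 on day 8, and the members together took 0.997% to 1.23% of them on day 14 and 1.15% to 1.39% on day 8. Differences are log2 differences of day 14 against day 8, followed by their standard error (SE), from edgeR's quasi-likelihood test. Adjusted p-values come from that test with Benjamini-Hochberg adjustment over all 17570 genes, and a gene was called at an adjusted p below 0.05. The CPM use TMM-scaled library sizes. They are not divided by transcript length, so levels of different genes are not compared. The labels give the cell type only as embryo. Of the cell type markers looked for, 6 mesenchymal genes summed to 5159 to 6842 CPM on day 14 and 2780 to 5239 CPM on day 8. Called higher were 4 of them (12.0% of all genes), but not the collagens *col1a1a* and *col5a1*. Among the 4 was *vim*, at only 0.630 to 0.874 CPM on day 14 and 0.213 to 0.326 CPM on day 8, which was called in 8 of 16 alternative fits. Both epithelial markers found, *cdh1* and *krt4*, were called lower (13.3% of all genes), with 236 to 264 CPM on day 14 and 369 to 423 CPM on day 8 in sum. The 4 muscle markers found summed to 28.0 to 35.6 CPM on day 14 and 17.7 to 24.4 CPM on day 8. Of these, only *ckma* was called higher (adjusted p = 0.0281, and 0.134 with the replicate number as a block), against 12.0% of all genes. It had 11.7 to 18.9 CPM on day 14 and 0.695 to 6.61 CPM on day 8, while *myog*, *myod1* and *unc45b* were not called. The part of these shifts in the results below was not tested, and in such bulk samples fewer cells of a type and less RNA per cell cannot be told apart.

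Of the 101 members, 30 (29.7%) were called lower on day 14, against 13.3% of all genes tested, and 4 (3.96%) were called higher, against 12.0% of all genes. For 36 members every day 14 library lay below every day 8 library (17.7% of all genes), and for 8 members every day 14 library lay above (17.1% of all genes). The median log2 difference was -0.24 over the members and 0.0032 over all genes. Libraries form 3 pairs by replicate number, and in all 3 pairs day 14 was lower for 55 members (54.5%, against 31.6% of all genes) and higher for 18 (17.8%, against 31.5%). These include each of the 30 called lower and each of the 4 called higher. The calls rest on the same libraries, so this agreement adds no separate support to them. With the replicate number as a block, 34 members were called lower (18.9% of all genes) and 10 higher (17.7% of all genes), which includes all 34 called without it. The lower count depended on single libraries, for the members as for all genes. It was 16 or 18 when replicate 2 or replicate 4 of day 14 was left out and 19 when replicate 2 of day 8 was. Over all 17570 genes, lower calls in these fits were 1437, 1361 and 1713, against 2344 with all libraries. Without replicate 2 of day 14, 2 members and 1282 of all genes were called higher, against 4 and 2101 with all libraries.

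The classes differed in how many of their members were called. Lower calls were 6 of 9 in CCT, 5 of 15 in HSP70, 1 of 2 in HSP90, 14 of 49 in J proteins, 3 of 10 among co-chaperones and 1 of 7 small heat shock proteins. Of 3 heat shock factors and 5 prefoldin genes, 0 were called in either direction. Of all genes tested 13.3% were called lower, and the share of small heat shock proteins (14.3%) lay near that. The 4 higher calls were *hspb1*, *hspa12b*, *dnajb14* and *dnajc3b*. Class medians ran from -0.64 in CCT over -0.50 in heat shock factors, -0.43 in prefoldin, -0.38 in HSP90, -0.24 in J proteins, -0.22 in co-chaperones and -0.11 in HSP70 to 0.25 in small heat shock proteins, and *hspbap1*, the only gene outside these classes, had 0.67. The medians of heat shock factors and HSP90 rest on 3 and 2 genes, whose log2 differences ran from -0.92 to 0.065 and from -0.93 to 0.18. These counts and medians describe the classes, and differences between classes were not tested.

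**Figure D1:**
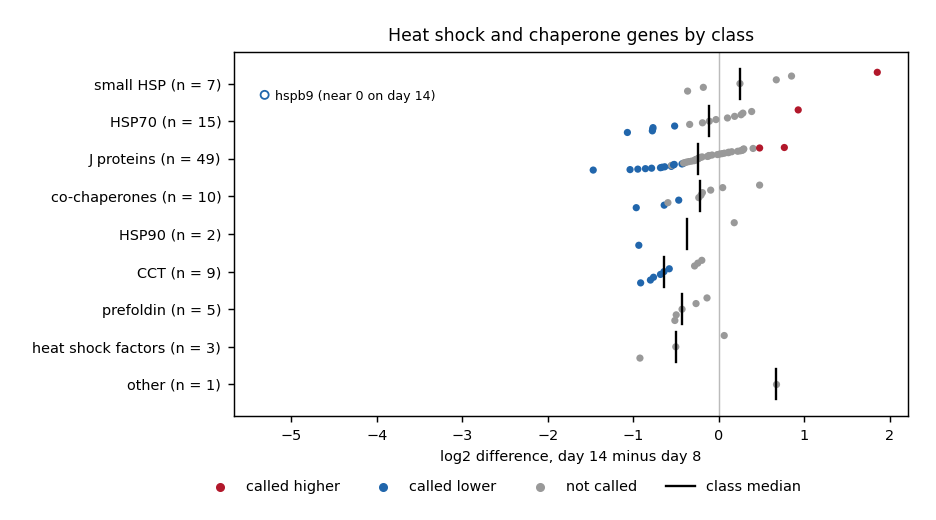
Log2 difference of day 14 against day 8 (x axis) for each of the 101 members (points), by class (rows), coloured by the edgeR call at an adjusted p below 0.05, with the class median as a black line. The CCT median lies at -0.64 and that of small heat shock proteins at 0.25, and the open point is *hspb9*, whose fitted value is not a measured fold because day 14 had only 2 counts.

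The small heat shock proteins held the members with the clearest opposite changes. *hspb1* (ENSDARG00000041065), known as HSP27 in mammals, rose on day 14. Its levels were 64.2, 89.3 and 49.4 CPM in day 14 replicates 1, 2 and 4, against 20.2, 13.6, 23.1 and 18.1 CPM in day 8 replicates 1 to 4. Every day 14 library was above every day 8 library, and the log2 difference was 1.86 (SE 0.22, adjusted p = 2.08e-04), a 3.62-fold higher level. The gene was called in each of the 16 alternative fits, with adjusted p-values up to 0.00605.

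*hspb9* (ENSDARG00000078674), a small heat shock protein that zebrafish embryos induce on heating, fell on day 14. It had 2, 0 and 0 counts (0.0600, 0 and 0 CPM) in day 14 replicates 1, 2 and 4, against 17, 27, 18 and 47 counts (1.31, 0.997, 0.979 and 2.0 CPM) in day 8 replicates 1 to 4. The growth phases did not overlap, although the gene was near the detection limit on day 8 as well. Over the summed counts, 2 on day 14 and 109 on day 8, the level was 46.1-fold lower on day 14, with an exact 95% interval of 12.5 to 386 that covers counting error only. The gene was called by edgeR (adjusted p = 4.79e-04) and in each of the 16 alternatives.

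The other 5 small heat shock proteins were not called. *hspb8*, the partner of BAG3 in chaperone-assisted autophagy in mammals, had 162, 148 and 133 CPM in day 14 replicates, against 208, 185, 134 and 142 CPM in day 8 replicates (log2 difference -0.18, SE 0.18, adjusted p = 0.503). *hspb7*, which is best known from heart and muscle, had 49.2, 53.2 and 43.0 CPM on day 14 and 37.2, 42.9, 37.6 and 45.3 CPM on day 8 (log2 difference 0.25, SE 0.15, adjusted p = 0.244). In both genes the growth phases overlapped. *hspb11* ranged from 5.07 to 8.89 CPM on day 14 and from 5.48 to 12.3 CPM on day 8, with a log2 difference of -0.36 (SE 0.29, adjusted p = 0.393). *hspb2* ranged from 0.798 to 2.39 CPM on day 14 and from 0.386 to 1.11 CPM on day 8, and *hspb6* from 0.869 to 1.57 CPM on day 14 and from 0.256 to 1.09 CPM on day 8. With so few counts, their log2 differences of 0.85 and 0.67 (SE 0.46 and 0.48) were not distinguishable from 0 at this depth (adjusted p = 0.195 and 0.335). Relative to *hspb8* of the same library, *hspb1* stood at 0.395, 0.603 and 0.372 on day 14 and at 0.0970, 0.0732, 0.172 and 0.127 on day 8. This ratio does not depend on the scaling of library sizes, was chosen after the values were seen and was not tested.

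**Figure D2:**
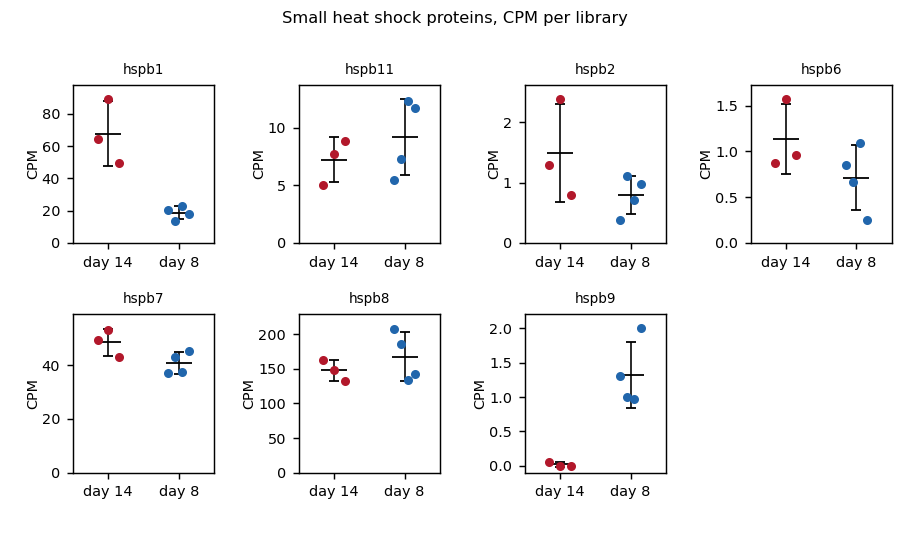
CPM per library of the 7 small heat shock proteins (1 panel each, linear y axis), with day 14 libraries in red and day 8 libraries in blue, and the mean ± SD as a black line and bar. For *hspb1* the day 14 points lie between 49.4 and 89.3 CPM and the day 8 points between 13.6 and 23.1 CPM, and for *hspb9* the day 14 points lie at or near 0.

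Among HSP70 proteins, 5 of 15 genes fell on day 14 (33.3%, against 13.3% of all genes) and 1 rose (6.67%, against 12.0%). The inducible cytosolic copies were expressed at low levels in both growth phases. *hsp70.1* (ENSDARG00000029688) had 5.46, 4.95 and 5.64 CPM in day 14 replicates 1, 2 and 4, against 9.58, 7.83, 9.89 and 9.34 CPM in day 8 replicates 1 to 4, without overlap (log2 difference -0.77, SE 0.18, adjusted p = 0.00834). Its near copy *hsp70.3* had 25.4, 12.9 and 17.4 CPM on day 14 and 21.5, 26.3, 27.3 and 19.4 CPM on day 8, with overlap, and was not called (log2 difference -0.34, SE 0.22, adjusted p = 0.290). *hsp70l* (1.22 to 2.62 CPM on day 14, 0.810 to 2.55 CPM on day 8) and *hspa1b* (1.86 to 3.15 CPM on day 14, 2.73 to 3.32 CPM on day 8) were not called either. RefSeq places *hsp70.1*, *hsp70.2* and *hsp70.3* next to each other in assembly GRCz12tu, and pseudo-alignment may divide reads between such copies, so the value of a single copy is uncertain. Summed over the 4 copies in the matrix, the level was 35.6, 23.7 and 26.1 CPM on day 14 and 35.7, 38.9, 42.9 and 32.3 CPM on day 8, and the sum was not called (log2 difference -0.39, SE 0.18, adjusted p = 0.125).

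The constitutive cytosolic HSP70 *hspa8* (ENSDARG00000068992), which also strips clathrin from vesicles, was at 3874, 3625 and 2989 CPM in day 14 replicates, against 2986, 2856, 2612 and 2249 CPM in day 8 replicates. Its day 14 values all lay above the day 8 values, although replicate 4 of day 14 and replicate 1 of day 8 were nearly equal. The log2 difference of 0.39 (SE 0.20) was not called (adjusted p = 0.185), but it was called with the replicate block (0.38, adjusted p = 0.0376). The second gene named *hspa8* (ENSDARG00000037403) had 3.41 to 4.31 CPM on day 14 and 2.47 to 3.97 CPM on day 8 (adjusted p = 0.465). *hspa2*, *hspa12a* and *hspa13* were not called, with log2 differences of -0.032, 0.28 and -0.11 (SE 0.22, 0.36 and 0.14).

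*hspa9* (ENSDARG00000003035), the mitochondrial HSP70 mortalin, which the name rule includes, fell. It had 167, 157 and 154 CPM in day 14 replicates 1, 2 and 4, against 280, 286, 262 and 262 CPM in day 8 replicates 1 to 4 (log2 difference -0.78, SE 0.14, adjusted p = 0.00198). In yeast and mammals HSPA14 (yeast Ssz1) and DNAJC2 (yeast zuotin) form a complex that sits on the ribosome and receives new polypeptides. *hspa14* (ENSDARG00000058030) had 11.7, 11.8 and 10.2 CPM on day 14 and 15.5, 19.4, 19.1 and 22.4 CPM on day 8 (log2 difference -0.77, SE 0.17, adjusted p = 0.00611). Its partner *dnajc2* (ENSDARG00000070477) had 11.8, 9.62 and 8.83 CPM on day 14 and 19.2, 21.5, 18.4 and 14.4 CPM on day 8 (log2 difference -0.86, SE 0.19, adjusted p = 0.00550). For these 3 genes the growth phases did not overlap, and each was called in all 16 alternatives.

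The HSP70 gene that rose, *hspa12b* (ENSDARG00000030307), is a divergent relative that in mammals is found in endothelial cells. It had 29.3, 31.6 and 43.8 CPM in day 14 replicates, against 17.3, 17.4, 16.9 and 21.5 CPM in day 8 replicates (log2 difference 0.93, SE 0.18, adjusted p = 0.00259). Every day 14 library was above every day 8 library. The endothelial marker *cdh5* had no named identifier in the matrix.

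Nucleotide exchange factors of HSP70, grouped here after their values were seen, were called lower for 4 of 9 genes (44.4%, against 13.3% of all genes). These were both genes named *hspa4*, *hspbp1* and *bag5*. The HSP110 gene *hspa4* (ENSDARG00000004754) had 61.1, 50.6 and 46.7 CPM in day 14 replicates 1, 2 and 4, against 116, 124, 109 and 93.5 CPM in day 8 replicates 1 to 4, so day 14 levels were about 0.48 of those on day 8 (log2 difference -1.07, SE 0.16, adjusted p = 7.26e-04). The second gene named *hspa4* (ENSDARG00000018989) had 137, 130 and 118 CPM on day 14 and 197, 194, 169 and 173 CPM on day 8 (log2 difference -0.52, SE 0.14, adjusted p = 0.0195). Within a library the first stood to the second at 0.447, 0.390 and 0.395 on day 14 and at 0.592, 0.638, 0.647 and 0.540 on day 8, which did not overlap and was not tested. The call of the second was lost without replicate 2 or 4 of day 14 or replicate 2 of day 8 (adjusted p = 0.0734, 0.0915 and 0.0687). The third HSP110 gene, *hsph1*, had 3.24 to 3.73 CPM on day 14 and 2.66 to 3.86 CPM on day 8 (log2 difference 0.10, SE 0.24, adjusted p = 0.790).

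*hspbp1* (ENSDARG00000102937) had 8.99, 9.50 and 10.0 CPM in day 14 replicates 1, 2 and 4, against 12.6, 19.9, 21.2 and 20.2 CPM in day 8 replicates 1 to 4 (log2 difference -0.96, SE 0.20, adjusted p = 0.00394). Replicate 1 of day 8 was the lowest of its growth phase and still above every day 14 library. *bag5* had 14.7, 9.44 and 13.0 CPM on day 14 and 17.8, 21.8, 16.9 and 20.8 CPM on day 8 (log2 difference -0.64, SE 0.19, adjusted p = 0.0255). Leaving out replicate 2 or 4 of day 14 ended its call (adjusted p = 0.121 and 0.0712), as did leaving out replicate 2 or 4 of day 8 (0.0798 and 0.0616). *bag3*, a stress-inducible factor that links HSP70 to autophagy, had 54.7, 48.6 and 46.3 CPM on day 14 and 58.4, 58.4, 54.6 and 63.0 CPM on day 8, and was not called (log2 difference -0.23, SE 0.14, adjusted p = 0.247). *bag1*, which links HSP70 to the proteasome, had 12.1, 18.0 and 17.1 CPM on day 14 and 10.6, 8.94, 13.8 and 11.8 CPM on day 8. Its log2 difference of 0.48 (SE 0.20) was not called (adjusted p = 0.0971), but it was called with the replicate block (0.59, adjusted p = 0.0133) and when replicate 1 of day 14 or replicate 3 of day 8 was left out (0.0486 and 0.0414). The other 4 genes with BAG names had log2 differences between -0.59 and 0.047 and were not called.

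**Figure D3:**
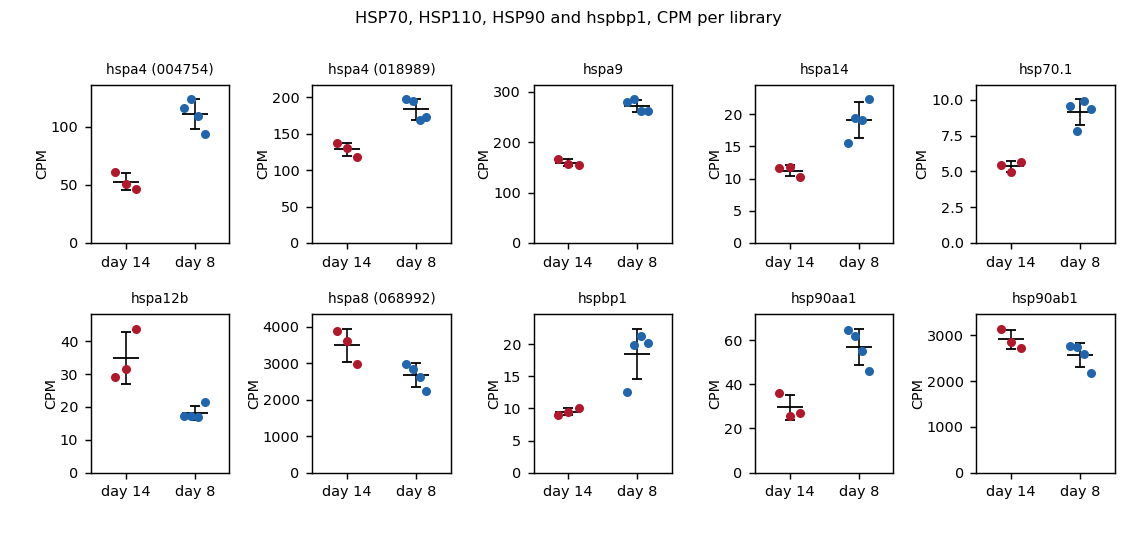
CPM per library (linear y axis from 0) of 10 genes of the HSP70, HSP110 and HSP90 groups and the exchange factor *hspbp1*, day 14 in red and day 8 in blue, with mean ± SD as a black line and bar; digits in brackets are the end of the Ensembl identifier. The first *hspa4* panel shows day 14 points between 46.7 and 61.1 CPM and day 8 points between 93.5 and 124 CPM, while *hsp90ab1* overlaps between growth phases.

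J proteins bring clients to HSP70 and start its ATP cycle, and those of type C have only the J domain in common and serve special tasks. Of 49 J proteins, 14 were called lower and 2 higher on day 14 (28.6% and 4.08%, against 13.3% and 12.0% of all genes). By type, lower calls were 2 of 6 in type A, 3 of 13 in type B and 9 of 30 in type C, with median log2 differences of -0.28, 0.11 and -0.29. The lower count of 14 was between 5 and 14 when 1 library was left out, with 7, 5 and 6 when replicate 1, 2 or 4 of day 14 was omitted and 7 and 9 when replicate 2 or 4 of day 8 was omitted. In the same order, these fits called 1932, 1437, 1361, 1713 and 1966 of all 17570 genes lower, against 2344 with all libraries.

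*dnajc17* (ENSDARG00000104959), whose human product is linked to splicing, had the largest decrease of the J proteins. It had 4.98, 2.80 and 3.51 CPM in day 14 replicates 1, 2 and 4, against 8.65, 12.7, 9.84 and 10.8 CPM in day 8 replicates 1 to 4 (log2 difference -1.47, SE 0.24, adjusted p = 9.98e-04). *dnajc21* (ENSDARG00000105195), the counterpart of a yeast factor that matures the large ribosomal subunit, had 28.1, 24.6 and 20.5 CPM on day 14 and 46.9, 58.0, 46.8 and 48.9 CPM on day 8 (log2 difference -1.04, SE 0.16, adjusted p = 9.07e-04). *dnajb2*, which hands ubiquitylated clients to the proteasome in mammalian neurons, had 3.06, 2.62 and 3.14 CPM on day 14 and 5.10, 5.32, 7.45 and 4.86 CPM on day 8 (log2 difference -0.95, SE 0.23, adjusted p = 0.00975). None of the 3 genes overlapped between growth phases, and each was called in all 16 alternatives, as *dnajc2* was.

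Lower calls included J proteins of vesicles. *dnajc6* (auxilin), which recruits HSP70 to clathrin coats, had 15.3, 12.4 and 10.0 CPM in day 14 replicates, against 26.0, 26.4, 16.3 and 18.3 CPM in day 8 replicates (log2 difference -0.78, SE 0.22, adjusted p = 0.0197). The fits that left out replicate 2 or 4 of day 14 or replicate 2 of day 8 did not call it (adjusted p = 0.0772, 0.105 and 0.0626). Of the 4 genes named after *dnajc5*, the cysteine string protein of synaptic and secretory vesicles, 3 were called lower (13.3% of all genes). The 4 log2 differences lay between -0.63 and -0.39. The 3 called were *dnajc5* (ENSDARG00000042948), *dnajc5ga* and *dnajc5gb*, and their calls were lost in 6, 3 and 5 of the 7 fits without 1 library (adjusted p up to 0.140, 0.0816 and 0.158). For *dnajc5gb* the growth phases overlapped. The fourth, *dnajc5* (ENSDARG00000004836), was called with the replicate block (log2 difference -0.54, adjusted p = 0.00308). This group was formed after its values were seen.

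*dnajb1a* and *dnajb1b* are the zebrafish counterparts of HSP40, the heat-inducible partner of HSP70. *dnajb1a* had 19.7, 18.9 and 19.9 CPM in day 14 replicates, against 24.7, 25.6, 27.9 and 26.9 CPM in day 8 replicates (log2 difference -0.43, SE 0.14, adjusted p = 0.0405). *dnajb1b* had 25.5, 27.7 and 25.5 CPM on day 14 and 17.9, 21.5, 23.2 and 23.9 CPM on day 8, and was not called (log2 difference 0.28, SE 0.15, adjusted p = 0.209). In both genes the growth phases did not overlap, in opposite directions. The ratio of *dnajb1a* to *dnajb1b* within a library was 0.772, 0.684 and 0.781 on day 14 and 1.38, 1.19, 1.2 and 1.13 on day 8, without a test of the difference. The call of *dnajb1a* held only without replicate 1 of day 8 among the 7 fits without 1 library (adjusted p up to 0.131).

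*dnaja1*, the farnesylated partner of HSP70, had 29.2, 27.7 and 36.8 CPM on day 14 and 30.7, 35.8, 37.7 and 45.3 CPM on day 8 (log2 difference -0.26, SE 0.17, adjusted p = 0.298). Of the pair named *dnaja2*, ENSDARG00000010745 was called (log2 difference -0.42, SE 0.13, adjusted p = 0.0371) and the other was not. The call of the first was lost in 5 of the 7 fits without 1 library, with adjusted p-values up to 0.127. The remaining lower calls were *dnaja*, *dnajb5*, *dnajc1* and *dnajc11* (ENSDARG00000011196), with log2 differences from -0.68 to -0.52. They were lost in 5, 1, 3 and 3 of the 7 fits (adjusted p up to 0.112, 0.0725, 0.0624 and 0.0675).

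The J proteins that rose were *dnajb14* and *dnajc3b*, both linked to the endoplasmic reticulum (ER) in mammals. *dnajb14*, in the ER membrane with its J domain in the cytosol, had 9.95, 15.2 and 13.7 CPM in day 14 replicates, against 7.65, 7.13, 8.26 and 7.25 CPM in day 8 replicates (log2 difference 0.77, SE 0.19, adjusted p = 0.00999, and 0.0594 without replicate 2 of day 14). *dnajc3b*, related to the inhibitor p58IPK of the ER stress response, had 25.3, 23.5 and 25.9 CPM on day 14 and 20.4, 17.1, 17.7 and 16.5 CPM on day 8 (log2 difference 0.48, SE 0.15, adjusted p = 0.0313). The call of *dnajc3b* was lost without TMM scaling (adjusted p = 0.230) and in 5 of the 7 fits without 1 library, with adjusted p-values up to 0.101. Of 6 matched J proteins on a list of ER members, which does not hold *dnajb14*, *dnajc3b* was called higher and *dnajc1* lower. The list names *dnajb9a* and *dnajb9b*, so *dnajb9* (ENSDARG00000016886 and ENSDARG00000052072) was not matched. Neither of these identifiers was called (adjusted p = 0.843 and 0.765). Of 5 matched J proteins on a mitochondrial list, edgeR, DESeq2 and limma called 0, 1 had an unadjusted p below 0.05, and the replicate block called *dnajc28* higher (adjusted p = 0.0172). That list names *dnajc11a*, *dnajc11b* and *dnaja3a*, so *dnajc11* (ENSDARG00000011196 and ENSDARG00000102696) and *dnaja3* were not matched. A protein of the mitochondrial membranes in mammals, *dnajc11* was called lower for ENSDARG00000011196 (adjusted p = 0.0175). For ENSDARG00000102696 it was called lower only with the replicate block (adjusted p = 0.0149). *dnaja3* was not called (adjusted p = 0.143). The count of 0 therefore does not cover every mitochondrial J protein.

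**Figure D4:**
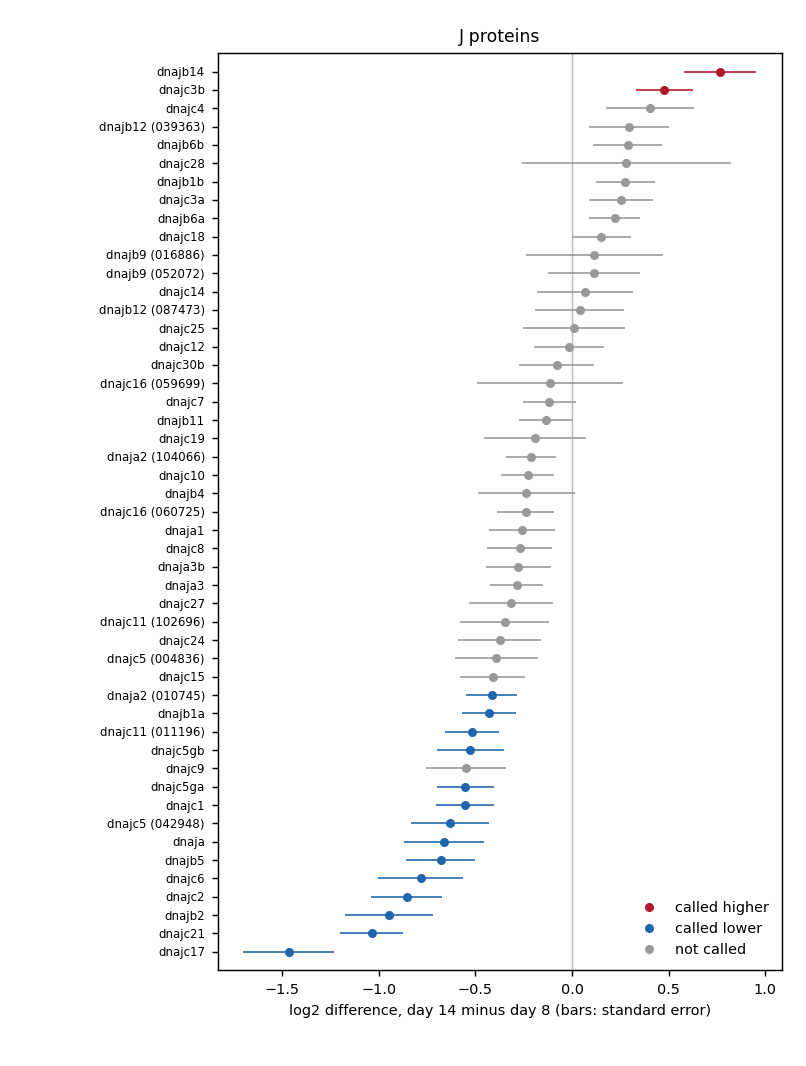
Log2 difference of day 14 against day 8 with its SE (x axis) for the 49 J proteins, ordered from the largest rise to the largest fall and coloured by the edgeR call; digits in brackets are the end of the Ensembl identifier. The lowest point is *dnajc17* at -1.47 and the highest is *dnajb14* at 0.77.

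The HSP90 class held 2 genes, which differed in their change. *hsp90aa1* (ENSDARG00000024746), the form whose mammalian counterpart is inducible, fell on day 14. It had 36.2, 25.7 and 27.1 CPM in day 14 replicates 1, 2 and 4, against 64.5, 62.0, 55.0 and 45.9 CPM in day 8 replicates 1 to 4 (log2 difference -0.93, SE 0.18, adjusted p = 0.00274), without overlap and in all 16 alternatives. *hsp90ab1* (ENSDARG00000029150), the constitutive form, had 3147, 2865 and 2731 CPM on day 14 and 2759, 2745, 2586 and 2188 CPM on day 8, with overlap (log2 difference 0.18, SE 0.19, adjusted p = 0.527). Within a library the ratio of *hsp90aa1* to *hsp90ab1* was 0.0115, 0.00897 and 0.00993 on day 14 and 0.0234, 0.0226, 0.0213 and 0.0210 on day 8. It averaged 0.0101 ± 0.00127 on day 14 (SD, n = 3) and 0.0220 ± 0.00112 on day 8 (SD, n = 4), a log2 difference of -1.13 (exact permutation test, two-sided, p = 0.0286, the smallest that 35 splits allow). This test treats the libraries as unpaired, and the 3 pairs by replicate number, each lower on day 14, could not give a p below 0.25. Of 6 ratios computed, none of which was planned, it was the only one tested. The levels of *hsp90aa1* alone already separated the growth phases, so this p-value adds no support beyond the call of that gene.

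Of the cochaperones of HSP90 among the members, *ahsa1* fell. This gene, whose product speeds up the HSP90 ATPase, had 34.6, 35.3 and 31.4 CPM on day 14 and 46.4, 45.8, 53.4 and 41.3 CPM on day 8 (log2 difference -0.47, SE 0.15, adjusted p = 0.0348). Its call was lost in 5 of the 7 fits without 1 library, with adjusted p-values up to 0.130. *stip1*, which hands clients from HSP70 to HSP90, had 145, 148 and 123 CPM on day 14 and 157, 152, 149 and 133 CPM on day 8, and was not called (log2 difference -0.094, SE 0.14, adjusted p = 0.672).

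Among 32 other chaperone partners on a list outside the name rule, 25 were matched, of which 4 were called lower and 2 higher (13.3% and 12.0% of all genes). With the replicate block 10 of them were called lower and 5 higher (18.9% and 17.7% of all genes). The median log2 difference of the 25 was -0.26. Those called lower without the block were *tomm34*, which binds HSP70 and HSP90 at the mitochondrial surface, the HSP90-bound prolyl isomerases *ppid* and *fkbp4*, and *nudc*, with log2 differences of -1.08, -0.84, -0.46 and -0.55 (adjusted p = 7.04e-04, 0.00264, 0.0378 and 0.0411). *naca*, a subunit of the nascent polypeptide-associated complex, and *st13*, the HSP70-interacting protein Hip, had log2 differences of 0.82 and 0.45 (adjusted p = 0.0214 and 0.0334). Over all alternatives, the adjusted p of *tomm34* and *ppid* stayed at or below 0.00732 and 0.0194, while those of *fkbp4*, *nudc*, *naca* and *st13* reached 0.151, 0.115, 0.0985 and 0.133.

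Most genes of the chaperonin CCT fell on day 14. All 9 identifiers, 2 of which are named *cct2*, were lower on day 14 by their fitted difference and in all 3 same-numbered pairs. Of all 17570 genes, 8750 had a negative fitted difference and 31.6% were lower in all 3 pairs. Of the 9, 6 were called lower (66.7%, against 13.3% of all genes), by edgeR as by DESeq2 and limma. *tcp1* (ENSDARG00000017891), the alpha subunit, had 166, 151 and 138 CPM in day 14 replicates 1, 2 and 4, against 243, 300, 334 and 266 CPM in day 8 replicates 1 to 4 (log2 difference -0.91, SE 0.16, adjusted p = 0.00187). The 2 genes named *cct2* had 127, 108 and 102 CPM on day 14 and 177, 205, 233 and 168 CPM on day 8 for ENSDARG00000104674 (log2 difference -0.80, SE 0.16, adjusted p = 0.00412). For ENSDARG00000087206 they had 36.9, 31.5 and 29.5 CPM on day 14 and 46.7, 58.0, 57.0 and 47.7 CPM on day 8 (log2 difference -0.68, SE 0.16, adjusted p = 0.00735). Within a library the first stood to the second at 3.45, 3.43 and 3.48 on day 14 and at 3.80, 3.53, 4.09 and 3.53 on day 8. Whether pseudo-alignment divided reads between the 2 was not tested, so they may not count as separate genes. *cct3* had 261, 244 and 218 CPM on day 14 and 371, 431, 453 and 379 CPM on day 8 (log2 difference -0.76, SE 0.16, adjusted p = 0.00434). For these 4 genes no day 14 library reached a day 8 library.

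*cct5* and *cct4* were called lower with log2 differences of -0.64 (SE 0.17, adjusted p = 0.0149) and -0.58 (SE 0.17, adjusted p = 0.0279). *cct5* ranged from 192 to 206 CPM on day 14 and from 249 to 375 CPM on day 8, and *cct4* from 341 to 398 CPM on day 14 and from 459 to 643 CPM on day 8. The call of *cct5* was lost without replicate 2 of day 14 (adjusted p = 0.0690), and that of *cct4* without replicate 2 or 4 of day 14 or replicate 2 of day 8 (adjusted p = 0.104, 0.113 and 0.0799).

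*cct6b*, *cct7* and *cct8* were not called. *cct8* had 435, 466 and 461 CPM in day 14 replicates, against 467, 527, 559 and 528 CPM in day 8 replicates, so the closest libraries of the growth phases were nearly equal (log2 difference -0.20, SE 0.16, adjusted p = 0.386). *cct7* had 499, 531 and 485 CPM on day 14 and 532, 626, 646 and 588 CPM on day 8 (log2 difference -0.24, SE 0.16, adjusted p = 0.292, and 0.0499 without TMM scaling). *cct6b* had 376, 375 and 342 CPM on day 14 and 434, 457, 507 and 373 CPM on day 8, with overlap (log2 difference -0.28, SE 0.16, adjusted p = 0.230). The ratio of *tcp1* to *cct8* within a library, picked after the values were seen as that of the subunits at the ends of this order, was 0.381, 0.325 and 0.300 on day 14 and 0.520, 0.569, 0.598 and 0.504 on day 8, and was not tested. Neighbours in this order differed by less than the SE of either gene, except *cct4* at -0.58 and *cct6b* at -0.28.

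**Figure D5:**
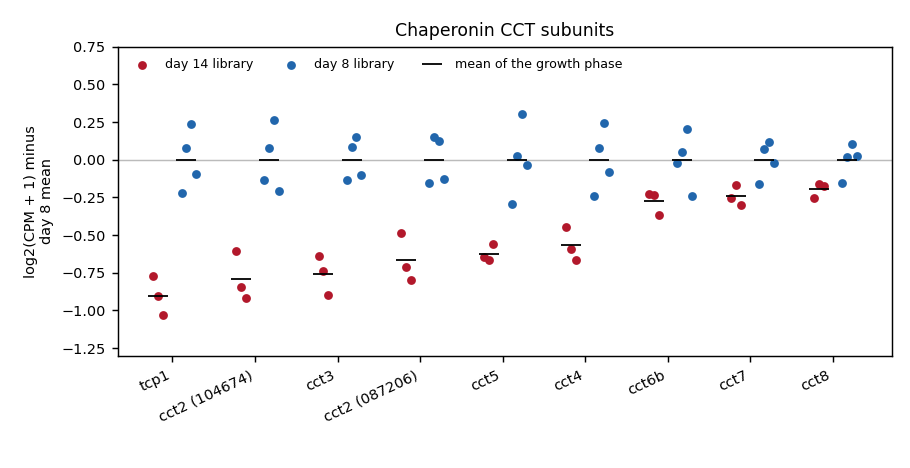
Level of each CCT gene per library as log2(CPM + 1) minus the day 8 mean of that gene (y axis), day 14 libraries in red and day 8 libraries in blue, with the mean of each growth phase as a black line; genes run from the largest to the smallest fall, and digits in brackets are the end of the Ensembl identifier. The fitted log2 differences run from -0.91 for *tcp1* to -0.20 for *cct8*.

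Of the 5 prefoldin subunits in the matrix under the name rule, edgeR called 0, with 2 at an unadjusted p below 0.05, DESeq2 called 1 and limma 0. The log2 differences lay between -0.51 for *pfdn4* and -0.14 for *pfdn5*, with -0.26 for *pfdn6*. *pfdn4* had 60.7, 63.1 and 66.5 CPM in day 14 replicates, against 72.8, 72.3, 126 and 90.6 CPM in day 8 replicates (adjusted p = 0.0753), and *pfdn2* had 21.6, 26.5 and 33.6 CPM on day 14 and 31.8, 34.5, 39.0 and 47.9 CPM on day 8 (log2 difference -0.50, SE 0.19, adjusted p = 0.0791). *pfdn2* was called with the replicate block (adjusted p = 0.00638), and *pfdn1*, *pfdn2* and *pfdn4* when replicate 1 of day 8 was left out (0.0460, 0.0409 and 0.0331). Without TMM scaling these 3 were called (adjusted p = 0.0266 for *pfdn1*, 0.0218 for *pfdn2* and 0.0134 for *pfdn4*). The day 8 replicates spread widely in this class: relative to the day 8 mean, the class mean of log2(CPM + 1) was -0.40, -0.21, 0.37 and 0.24 in day 8 replicates 1 to 4, and -0.57, -0.29 and -0.13 in day 14 replicates 1, 2 and 4. In CCT the same values were -0.48, -0.56 and -0.63 on day 14 and -0.17, 0.070, 0.19 and -0.098 on day 8, without overlap.

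Of the heat shock factors, edgeR, DESeq2 and limma called 0 of 3, with 1 at an unadjusted p below 0.05. *hsf1*, the main activator of the heat shock response, had 24, 20.3 and 22.4 CPM in day 14 replicates, against 24.2, 22.1, 17.4 and 21.4 CPM in day 8 replicates (log2 difference 0.065, SE 0.16, adjusted p = 0.802), and the sign of this small difference changed between alternatives. *hsf2* had 29.0, 23.9 and 24.3 CPM on day 14 and 28.4, 34.5, 54.2 and 28.7 CPM on day 8, with replicate 3 of day 8 above the other libraries (log2 difference -0.50, SE 0.22, adjusted p = 0.120, and 0.0421 without TMM scaling). *hsf5* stayed between 0.319 and 0.690 CPM on day 14 and between 0.544 and 1.24 CPM on day 8 (adjusted p = 0.166).

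Of 14 names on a list of heat-inducible members, 11 were matched, of which *hsp70.1*, *hspb9* and *dnajb1a* were called lower and *hspb1* higher. These are 27.3% and 9.09% of the 11, against 13.3% and 12.0% of all genes. The other 7, *hsp70.3*, *hsp70l*, *hspa1b*, *hsph1*, *hspb11*, *bag3* and *dnajb1b*, were not called. The list names *hsp90aa1.1* and *hsp90aa1.2*, so *hsp90aa1* was not matched. Although called lower (log2 difference -0.93), it is in neither these counts nor the sums below. The 11 genes summed to 180 to 220 CPM on day 14 and 168 to 188 CPM on day 8, which overlap. The sum rests on *hspb1*: without it, a sum added after the values were seen, the other 10 genes summed to 144, 130.31 and 130.35 CPM in day 14 replicates 1, 2 and 4, against 147, 157, 165 and 162 CPM in day 8 replicates 1 to 4. Every day 14 library was then below every day 8 library. Leaving out the gene called higher favours a lower sum on day 14, and this sum was not tested.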

How the data were processed

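RNA of PAC2 cells was sequenced from 3 day 14 and 4 day 8 libraries after poly-A selection. The authors used Kallisto for pseudo-alignment to Ensembl transcripts (GRCz11), summed the estimates per gene, and removed genes of low expression with edgeR 4.6.2 (per the labels). The deposited values are estimated counts that are not normalized (48.0% to 52.3% of them exactly whole, with a tolerance of 0), although titled normalized. They were rounded and tested over all 17570 genes with R 4.3.3 and edgeR 4.0.16 (TMM, robust estimateDisp and glmQLFit, glmQLFTest), with growth phase as the only term, as in the study's methods. Each SE is the absolute log2 difference divided by the square root of F. Names were found for 15073 identifiers.

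Members and lists were chosen with earlier results of these data known. By the rule for naming genes, every member outside the J proteins, co-chaperones and *hspbap1* was named, and of these the called ones with the largest differences in each direction (up to 6) and a fixed few (55 genes in all). A further 17, called in the fit or with the block, were added after their values were seen. The other lists gave their called genes.

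Each replicate number is a separate experiment with its own passage and starting day per the labels, so the numbers pair the samples. Deviations from the means of the growth phases correlated across genes by 0.302, -0.121 and 0.376 in replicates 1, 2 and 4, and by -0.329 to 0.339 between different numbers. The closest 2 libraries still differed beyond sampling noise (chi-square of 14.4 for each degree of freedom), and all 7 entered as separate samples.

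Alternatives were DESeq2 1.42.0, limma 3.58.1 on log2(CPM + 1) or log2(CPM + 0.5), other scalings, the newer quasi-likelihood form, no robust estimation, genes above 1 CPM, the replicate block, and the omission of each library. matplotlib 3.10.9 under Python 3.11.15 drew the figures. No sequences were used, and genome positions served only to see which *hsp70* copies neighbour each other in RefSeq.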

Additional observations from a re-analysis of the deposited data

Results flagged for a closer look

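In 3 of the 72 named genes, 1 day 8 library lay far from the other 3, and chance alone gives such a gap in about 1 in 20 groups. *hspbp1* had 12.6 CPM in replicate 1 of day 8, the library with the fewest counts, against 19.9 to 21.2 CPM in the other 3, and the gap took 0.846 of the range. *hspa12b* had 21.5 CPM in replicate 4 of day 8, with a gap of 0.892 of the range. *dnajc4* had 18.6 CPM in replicate 3 of day 8, with a gap of 0.8294 of the range, and was called higher on day 14 without this library (adjusted p = 0.0289) and with the replicate block (0.00647), but not with all libraries (0.223).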

How the results depend on the processing

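Of the 34 called members, 17 were called in each of the 16 alternatives, and the same number in each of the 7 fits without 1 library. Without TMM scaling the median of all genes was -0.17, and the medians were -0.42 for all members, 0.070 for small heat shock proteins, -0.29 for HSP70, -0.42 for J proteins and -0.80 for CCT, with 38 members called lower and 3 higher. Over all 17570 genes, 3258 were then called lower and 1218 higher, against 2344 and 2101 with TMM scaling. With the replicate block 10 members were called higher (17.7% of all genes). It added *hspa8* (ENSDARG00000068992), *bag1*, *dnajb12* (ENSDARG00000039363), *dnajc4*, *dnajc28* and *hspbap1* as higher and *dnajc5* (ENSDARG00000004836), *dnajc9*, *dnajc11* (ENSDARG00000102696) and *pfdn2* as lower calls. With 1 library left out, the members called lower were 16 to 33, those called higher 2 to 6, and J proteins called lower 5 to 14, while the median of all members was -0.29 to -0.23. Over all 17570 genes, these fits called 1361 to 2544 lower and 1282 to 2317 higher. The sign of some small differences that were not called changed: *hsf1* to -0.12 without scaling, -0.023 with the block and -0.011 to 0.13 with 1 library left out, *hsph1* to -0.089 without scaling, and *hspa12a*, *hspa2* and *pfdn5* to -0.023, 0.022 and 0.021 with the block. With 1 library left out, *hspa2* ranged from -0.16 to 0.10, *hsp70l* from -0.11 to 0.48, *hspa1b* from -0.32 to 0.0084 and *dnajc28* from -0.095 to 0.82. The cause was not tested. Depth limits genes of few counts most in replicate 1 of day 8, where 1 count is 0.0773 CPM.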

Other observations

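The organelle chaperones that the name rule leaves out were not alike. The mitochondrial chaperonin *hspd1*, its lid *hspe1* and the mitochondrial HSP90 *trap1* were called lower on day 14, with log2 differences of -1.14, -0.74 and -0.69 (SE 0.18, 0.23 and 0.13, adjusted p = 9.07e-04, 0.0317 and 0.00285 from edgeR), and the mitochondrial HSP70 *hspa9* fell as well. *hspd1* and *trap1* were called in all 16 alternatives and *hspe1* in 11, with adjusted p-values up to 0.104. The ER chaperones *hspa5* and *hsp90b1* were not called, with log2 differences of -0.043 and 0.42 (SE 0.20 and 0.15, adjusted p = 0.899 and 0.0623). *hsp90b1* was called higher with the replicate block (log2 difference 0.42, adjusted p = 0.00884), and for this gene every day 14 library lay above every day 8 library. The difference between the organelles was not tested. The constitutive *hspa8* (ENSDARG00000068992) and *hsp90ab1* together took 52.8% to 56.9% of the counts of all members on day 14 and 40.1% to 47.5% on day 8, without overlap, a share of counts that grows with transcript length. It also grows when the other members fall, and edgeR without the block called neither gene (adjusted p = 0.185 and 0.527). This share was not among the planned results and was not tested.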
